A study of Mus musculus with 8 samples.

Results

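The septins are a family of GTP-binding proteins that assemble into rod-shaped complexes and filaments under cell membranes. They fall into 4 subgroups named after SEPT2, SEPT3, SEPT6 and SEPT7, and a filament is built from members of different subgroups, with SEPT7 as the common unit. In mature myelin of the central nervous system, SEPT2, SEPT4, SEPT7 and SEPT8 form filaments together with the adaptor anillin (Anln), and these filaments line the innermost myelin layer and keep it from folding outward. The 9 septin genes described here are Sept2, Sept4, Sept5, Sept6, Sept7, Sept8, Sept9, Sept10 and Sept11. They were taken by name, since the RNA tables write them as calendar dates (2-Sep, 4-Sep, 5-Sep, 7-Sep, 8-Sep, 9-Sep, 10-Sep and 11-Sep), and 8 of the 9 were among the 11315 genes with RNA values. RNA of Sept6 (6-Sep) was not analysed here. Sept1 and Sept3 also had RNA values, and Sept1, Sept3, Sept12 and Sept14 had RRHP sites, but they are outside the set of 9. The date form 15-Sep stands for Sep15, a selenoprotein gene, and was not counted as a septin. In the DNA hydroxymethylation data, 701 of 1497075 CpG sites lay in the promoter, an exon or an intron of the 9 genes.

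The values come from C57BL/6 mice, all of postnatal day 60. Progenitors of the adult brain (aOPC, adult oligodendrocyte progenitor cells), the dividing cells that can generate new oligodendrocytes, were sorted from brains of Pdgfra-H2BEGFP mice, in which a nuclear EGFP is expressed from the Pdgfra locus. Adult oligodendrocytes (aOL), the cells that form myelin, were sorted from brains of Plp-EGFP mice, in which the Plp promoter drives EGFP and is active in the oligodendrocyte lineage. Each population had 2 RNA-seq libraries and 2 libraries of Reduced Representation Hydroxymethylation Profiling (RRHP), numbered 2 and 3, and replicate 1 was not analysed here. DNA and RNA were isolated together from each pellet of sorted cells, and the methods of the study call the RRHP inputs biological replicates. Whether the libraries of a population came from separate animals is not given in the labels, so p-values measure the spread between these libraries only. For RRHP, the aOL samples carry a tissue label with the Pdgfra reporter in it, and their titles decided the group, while the titles of the aOL RNA samples read pre-myelinating where the protocol reads myelinating. RRHP counts reads at CCGG sites that carry 5-hydroxymethylcytosine (5hmC), an oxidized form of methylated cytosine that is known to be rich in gene bodies of brain cells.

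The sorted populations were checked with marker genes before the septins were compared. The 10 oligodendrocyte and myelin genes had a median log2 value of 17.77 and 17.20 in the aOPC libraries 2 and 3, and of 17.48 and 17.57 in the aOL libraries, and the list went both ways. Opalin (-0.98), Cldn11 (-0.76), Mog (-0.65) and Aspa (-0.53) were lower in both aOL libraries at an unadjusted p under 0.05, Cnp (0.24) and Ermn (0.57) were higher in both, and none of the 10 was called. The 9 measured OPC genes had a median of 8.31 and 6.21 in aOPC and of 6.31 and 5.14 in aOL, with 3 of them above and 6 below 0 as a difference. At an unadjusted p under 0.05, Neu4 (-5.17), Vcan (-4.20) and Sox6 (-1.72) were lower in aOL and 0 were higher, and none of the 9 was called. The groups of 4 OPC genes did not overlap with aOL lower, and those of 1, Matn4, with aOL higher (8.63 and 8.14 in aOPC, 8.84 and 9.54 in aOL). Over all genes tested, 29.9% had such groups with aOL lower and 31.9% with aOL higher. An unadjusted p under 0.05 in limma was reached by 24.0% of them in either direction. Pdgfra itself, the receptor that marks OPCs, was at 7.54 and 5.47 in aOPC and at 4.98 and 1.63 in aOL. Of the other lists, the medians ran from 4.46 to 7.42 for 5 measured of 7 neuronal genes, from 8.92 to 10.20 for 7 of 7 astrocyte genes and from 7.24 to 8.33 for 7 of 8 microglial genes, and each of these lists had its highest median in aOPC library 2. The 2 measured of 7 endothelial genes were lower in aOPC (medians of 4.70 and 5.58) than in aOL (7.83 and 8.60). The part of these other cells in the septin values was not tested, and in bulk samples fewer cells of a type and less RNA per cell cannot be told apart. The RNA of Ddx3y, a gene of the Y chromosome, was at 12.43 in aOPC library 2 and at 0.32, 1.57 and 1.63 in aOPC library 3 and aOL libraries 2 and 3. Each RRHP library, in contrast, held reads on the Y chromosome. Not scaled for depth, these were 39466 and 82021 in aOPC libraries 2 and 3, and 63445 and 125732 in aOL libraries 2 and 3. Why RNA and RRHP differ in this was not tested.

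The RNA values are log2 levels that the authors brought to one common distribution, so a gene's value reflects its rank in its library. To order the genes, the log2 value was lowered by the log2 of the exon length in kb, on the reading that the deposited values are not already scaled by length. On this per-kb scale the 4 septins known from myelin filaments stood above the rest. Sept4 was highest, with a mean over the 4 libraries of 15.90, followed by Sept7 at 13.39, Sept8 at 12.67 and Sept2 at 11.11. The ranges of these neighbours over the 4 libraries did not overlap. Sept10 came next at 7.92, also apart from its neighbours. Sept5 at 6.17, Sept9 at 5.94 and Sept11 at 5.62 had overlapping ranges and cannot be ordered.

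**Figure D1:**
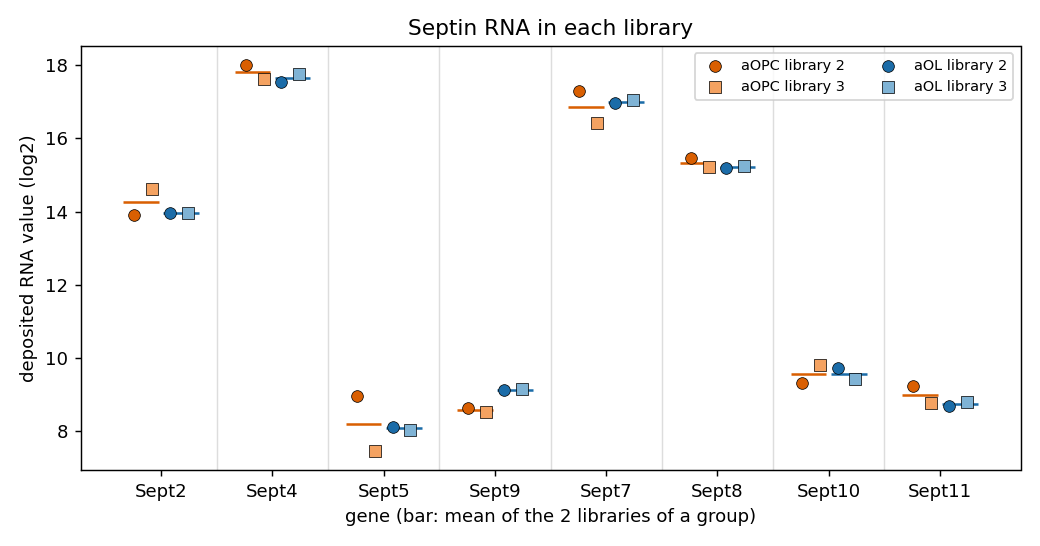
Deposited log2 RNA value (vertical axis) of the 8 measured septins (horizontal axis, by subgroup) in each library; orange points are aOPC, blue points are aOL, and short bars are group means of 2 libraries. Sept9 is the gene whose aOL values, 9.12 and 9.14, both lie above its aOPC values, while the aOPC libraries lie up to 1.49 apart for Sept5.

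None of the 8 septins passed the test for a difference in RNA between the populations (limma, p under 0.01 with an adjusted p under 0.05). The same test called 0.0808% of 11133 genes, 9 in number. At an unadjusted p under 0.05 stood 1 of the 8 septins, against 24.0% of all genes in either direction. The median difference over the septins was -0.12 on the log2 scale, against 0.02 over all genes. With 2 libraries per population the 95% intervals of the differences are wide. Their lower ends ran from -1.62 for Sept5 to 0.04 for Sept9, and their upper ends from 0.41 for Sept11 to 1.38 for Sept5, on the log2 scale. The interval of Sept9 alone among the 8 left out 0, before adjustment over all genes. Outside the set of 9, Sept1 and Sept3 RNA differed by 0.26 and -0.18, aOL minus aOPC (limma, adjusted p = 0.579 and 0.846).

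Among the SEPT2 subgroup, whose members bind GTP and hydrolyse it within the filament, Sept2 RNA was at 13.91 and 14.61 in aOPC and at 13.95 and 13.96 in aOL. The aOL values were nearly identical and lay between the aOPC values, with a difference of -0.30 (limma SE 0.30, adjusted p = 0.563). Sept4, which scaffolds myelin and of which one product binds the apoptosis inhibitor XIAP, was at 18.00 and 17.62 in aOPC and at 17.55 and 17.76 in aOL. These ranges overlapped, and the difference was -0.16 (limma 95% interval -0.81 to 0.49, adjusted p = 0.695). Sept5, which binds syntaxin at synaptic vesicles, was at 8.94 and 7.45 in aOPC and at 8.12 and 8.04 in aOL. Its aOPC libraries stood 1.49 apart on either side of aOL, so the difference of -0.12 had an interval of -1.62 to 1.38 (limma, adjusted p = 0.906). Sept5 shares its locus with Gp1bb, and reads of the shared end could have been counted for either gene. Gp1bb was listed at 6.87 and 4.01 in aOPC and at 0.32 and 1.63 in aOL.

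Sept9, which belongs to the SEPT3 subgroup and binds rhotekin, was at 8.63 and 8.53 in aOPC and at 9.12 and 9.14 in aOL. It was the 1 septin of 8 whose groups did not overlap, with both aOL libraries higher. Among all genes, 31.9% had non-overlapping groups with aOL higher and 29.9% with aOL lower, and 1 of 8 is a smaller share. The difference was 0.55 (limma SE 0.19, 95% interval 0.04 to 1.06), and it did not pass the test after adjustment over all genes (adjusted p = 0.194).

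Sept7, the unit common to septin filaments, was at 17.30 and 16.41 in aOPC and at 16.97 and 17.05 in aOL. Both aOL values again lay between the aOPC values, and the difference was 0.15 (limma 95% interval -0.83 to 1.13, adjusted p = 0.810). In the SEPT6 subgroup, whose members bind GTP without hydrolysing it, Sept8 was at 15.47 and 15.21 in aOPC and at 15.19 and 15.23 in aOL. The difference for Sept8, a septin of myelin filaments that also binds the vesicle protein VAMP2, was -0.13 (limma 95% interval -0.69 to 0.43, adjusted p = 0.722). Sept10 was at 9.32 and 9.80 in aOPC and at 9.71 and 9.42 in aOL, a difference of 0.01 (limma SE 0.27, adjusted p = 0.987). Sept11, a partner of SEPT7 in filaments, was at 9.23 and 8.76 in aOPC and at 8.67 and 8.78 in aOL, and the difference was -0.26 (limma SE 0.25, adjusted p = 0.540). In the SEPT6 subgroup the groups of each measured gene overlapped.

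The 2 aOL libraries agreed closely for most septins, and the aOPC libraries set the width of the intervals. The aOPC libraries differed by 0.69 for Sept2, 0.88 for Sept7 and 1.49 for Sept5, where the aOL libraries differed by 0.01, 0.09 and 0.08. Without aOPC library 2, limma called Sept9 higher (0.60) and Sept2 lower (-0.65) in aOL, and without aOPC library 3 it called Sept5 lower (-0.87). Without library 2, Sept5 (0.62) and Sept7 (0.59) differed about as much as Sept9 and were not called. In those fits the lone aOPC library was taken to vary like the aOL pair, and the test called 2026 genes higher and 1969 lower of 11000 without library 2, and 1323 higher and 1021 lower of 11001 without library 3. The direction of several genes turned with the aOPC library left out. Without library 2 and without library 3, the difference was 0.62 and -0.87 for Sept5, -0.65 and 0.04 for Sept2, 0.59 and -0.29 for Sept7, and -0.23 and 0.25 for Sept10. Sept4 went from 0.03 to -0.35 and Sept8 from 0.00 to -0.25. Sept11 stayed below 0, at -0.03 and -0.50, and Sept9 above 0, at 0.60 and 0.50. Without an aOL library, 0 septins were called.

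The genes whose pattern over the 4 RNA libraries was most like each septin, by the root mean square distance of centred log2 values, were Degs1 for Sept2 (0.0073), Mdm1 for Sept4 (0.012), Adcyap1r1 for Sept5 (0.050), Vps33b for Sept7 (0.012), Pex3 for Sept8 (0.011), Slc44a2 for Sept9 (0.0049), Poll for Sept10 (0.012) and Tet3 for Sept11 (0.011). Patterns over 4 libraries are common: 69 genes lay within a distance of 0.05 of Sept2 and 71 of Sept9, while none lay that close to Sept5.

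Septin partners were followed through a list of 13 genes, 10 of which had RNA values. These encode anillin, the GTPases CDC42 and RHOA, the CDC42 effectors of the Borg family that bind septins, rhotekin, and the septin-binding proteins STX1A, VAMP2 and XIAP. None of the 10 was called and none reached an unadjusted p under 0.05 in limma. Anln, the adaptor of myelin septin filaments, was at 15.32 and 14.12 in aOPC and at 15.67 and 15.63 in aOL, both aOL libraries being higher. Its difference of 0.93 came with a wide aOPC pair (limma 95% interval -0.32 to 2.18, adjusted p = 0.290). Cdc42 was at 15.05 and 15.82 in aOPC and at 14.94 and 15.003 in aOL, a difference of -0.46 (limma SE 0.32, adjusted p = 0.424). The groups of 6 partners did not overlap: Anln, Cdc42ep4 (difference 0.36) and Stx1a (1.34) were higher in both aOL libraries, and Cdc42, Cdc42ep2 (-0.50) and Rhoa (-0.55) were lower. These 3 and 3 of 10 stand beside the 31.9% and 29.9% of all genes given above.

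For 5hmC, the 4 RRHP libraries held 7113237 and 17121440 reads in aOPC libraries 2 and 3 and 15923775 and 27057859 reads in aOL libraries 2 and 3. The septin sites received 4170, 10545, 10024 and 16489 of them in that order, at 517, 539, 556 and 617 of the 701 sites. A count of 0 allows up to 3 reads, which is 0.422, 0.175, 0.188 and 0.111 CPM (counts scaled to the same total in each library) in these libraries, and such limits cover counting error only. Sept9 alone held 359 of the 701 sites, followed by Sept11 with 89, Sept5 with 65, Sept8 with 55, Sept7 with 40, Sept10 with 39, Sept2 with 25, Sept6 with 16 and Sept4 with 13.

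Each RRHP site is a cytosine at a CCGG on 1 strand, and each of the 701 septin positions matched a CCGG in GRCm38. The windows printed here, of 30 bases read from that reference on the strand of the site, show the called site and 4 of the most-read sites described below, with the CCGG in capitals. The first is the Sept9 site called between the populations, in an intron and read on the minus strand (chr11:117327868-117327897). The second is the most-read Sept9 site (plus strand, chr11:117308149-117308178), which GENCODE places in a UTR of a Sept9 transcript. The third is the most-read Sept5 site, 907 bases from the gene start, which lies both in the promoter and in an intron (minus strand, chr16:18629016-18629045). The fourth is the most-read Sept4 site, in coding sequence (plus strand, chr11:87588795-87588824). The last is the most-read Sept7 site, 140 bases before the gene start (plus strand, chr9:25251837-25251866), shown because this gene had the lowest 5hmC signal per CCGG strand of the 9.
Sept9 called site: aatcacaggtgtcCCGGaccacagagaggc
Sept9 most-read site: gtcacagctggctCCGGttacagagggttg
Sept5 most-read site: aagtaccagcctaCCGGgtaacctgtgaaa
Sept4 most-read site: acatccaggacaaCCGGgtgcactgctgcc
Sept7 most-read site: gtgcgccagaccaCCGGggatgaccagcag

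Levels of 5hmC were compared between genes as RRHP CPM per CCGG strand over the gene from start to end, which removes the number of readable sites. The median of 17587 genes with at least 5 CCGG was 0.273 CPM per CCGG strand. Sept5, the shortest of the 9 genes at 8128 bases and the densest in CCGG, was the most marked septin, with 0.884 and 0.959 in aOPC and 0.923 and 0.900 in aOL. By its mean over the 4 libraries it stood at percentile 98.0 of these genes. Sept4 followed with 0.531 and 0.749 in aOPC and 0.733 and 0.629 in aOL, at percentile 92.8. For Sept4 this level rests on 36 strand sites with reads between the gene's start and end in RefSeq. The authors' columns instead give the gene 13 sites, 12 of them in the gene body, and the other Sept4 5hmC values use those. Both genes lay above the median gene in each library.

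The long gene Sept9 (162665 bases, 306 CCGG) had 0.496 and 0.565 CPM per CCGG strand in aOPC and 0.583 and 0.555 in aOL. Sept11 was at 0.507 and 0.501 in aOPC and at 0.490 and 0.499 in aOL, and Sept8 at 0.487 and 0.433 in aOPC and at 0.460 and 0.419 in aOL. These 3 genes stood at percentiles 86.8, 82.9 and 77.8. Sept2 was near the median gene, with 0.216 and 0.263 in aOPC and 0.326 and 0.279 in aOL.

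Sept10, Sept6 and Sept7 were the least marked, below the median gene in each library. Sept10 was at 0.152 and 0.148 in aOPC and at 0.147 and 0.172 in aOL. Sept6, on the X chromosome, was at 0.161 and 0.124 in aOPC and at 0.140 and 0.160 in aOL. Sept7 was lowest, with 0.085 and 0.048 in aOPC and 0.035 and 0.068 in aOL, at percentile 6.00. Sept7 thus combined high RNA per kb with the least 5hmC, while Sept4 was high in both. Across the 8 septins with both readouts, the Spearman correlation of RNA per kb with 5hmC per CCGG strand ran from -0.38 to -0.26 when each RNA library was set against the RRHP library of the same population and number, over 8 points that share their libraries.

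**Figure D2:**
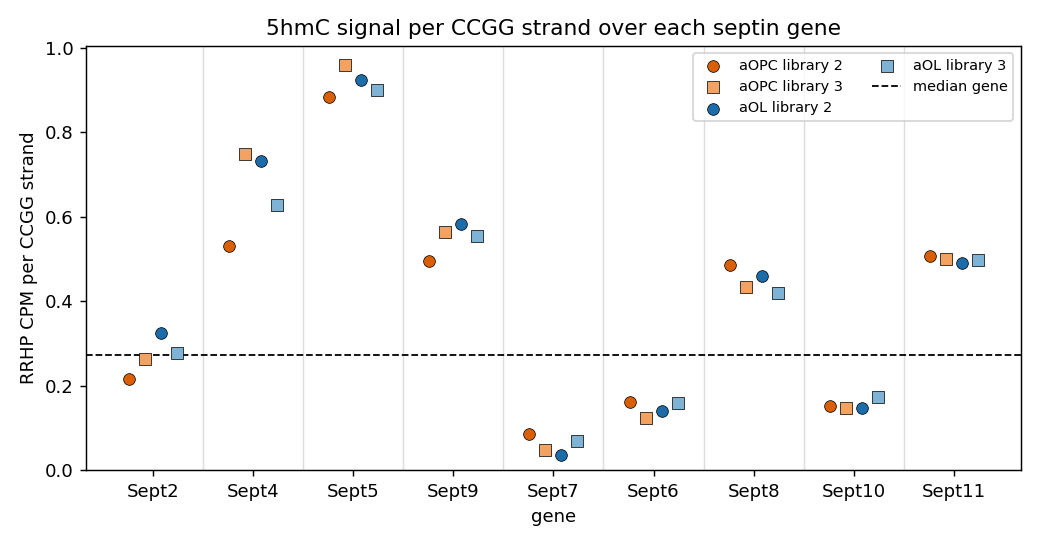
RRHP CPM per CCGG strand (vertical axis) over each septin gene (horizontal axis) in the 4 libraries; the dashed line marks the median of 17587 genes, 0.273. Sept5 and Sept4 lie above 0.5 in each library, Sept7 lies below 0.1, and the aOPC and aOL points of a gene lie close together.

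The sums over gene bodies, that is the sites in exons and introns, were not called between the populations for any of the 9 septins (edgeR quasi-likelihood test, adjusted p from 0.794 to 0.969). The test called 0.849% of 18488 gene bodies, and at an unadjusted p under 0.05 there were 0 septins against 7.30% of all genes. Sept9 had 304 and 346 CPM in aOPC and 357 and 340 CPM in aOL, and the aOPC and aOL ranges overlapped. From 2161 to 9198 reads a library, its difference was 0.09 on the log2 scale (edgeR SE 0.13, adjusted p = 0.871), and it was -0.01 without aOPC library 2 and 0.21 without aOPC library 3. Sept11 was at 84.6 and 88.2 CPM in aOPC and at 85.6 and 86.3 CPM in aOL, a difference of -0.02 (edgeR SE 0.12, adjusted p = 0.969). Sept5 was at 70.7 and 76.7 CPM in aOPC and at 73.8 and 72.0 CPM in aOL, a difference of -0.03 (edgeR SE 0.12, adjusted p = 0.954). The groups of these 3 genes overlapped.

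Of the septins known from myelin filaments, Sept8 was at 49.5 and 44.7 CPM in aOPC and at 47.1 and 43.1 CPM in aOL (difference -0.07, edgeR SE 0.13, adjusted p = 0.897). Sept4 was at 18.0 and 21.4 CPM in aOPC and at 24.7 and 20.8 CPM in aOL (difference 0.18, edgeR SE 0.16, adjusted p = 0.803). For both genes the groups overlapped. Sept2 was the one septin whose groups did not overlap with aOL higher, as was the case for 21.0% of all gene bodies. It had 5.62 and 6.83 CPM in aOPC and 8.48 and 7.24 CPM in aOL, and the difference of 0.30 rested on 40 to 196 reads a library and did not pass the test (edgeR SE 0.25, adjusted p = 0.794). Sept2 sites before the gene start also lie in an intron of Hdlbp and were not part of this sum.

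The weakly marked genes gave wider errors. Sept7 was at 4.78 and 2.34 CPM in aOPC and at 1.88 and 3.84 CPM in aOL, from 30 to 104 reads a library (difference -0.25, edgeR SE 0.51, adjusted p = 0.908). Sept10 was at 12.7 and 10.98 CPM in aOPC and at 11.1 and 13.05 CPM in aOL (difference 0.04, edgeR SE 0.19, adjusted p = 0.959). Sept6 was at 8.997 and 6.95 CPM in aOPC and at 7.85 and 8.94 CPM in aOL (difference 0.09, edgeR SE 0.23, adjusted p = 0.923). The groups overlapped for these 3 genes, and each difference was smaller than its standard error. The direction of 6 gene bodies turned when 1 library was left out. Over the 4 such fits the difference ran from -0.89 to 0.32 for Sept7, from -0.10 to 0.15 for Sept10, from -0.08 to 0.26 for Sept6, from -0.01 to 0.21 for Sept9, from -0.10 to 0.06 for Sept5 and from -0.06 to 0.04 for Sept11. It kept its direction for Sept2 (0.17 to 0.49), Sept4 (0.05 to 0.34) and Sept8 (-0.12 to -0.01), and 0 septin gene bodies were called in these fits.

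**Figure D3:**
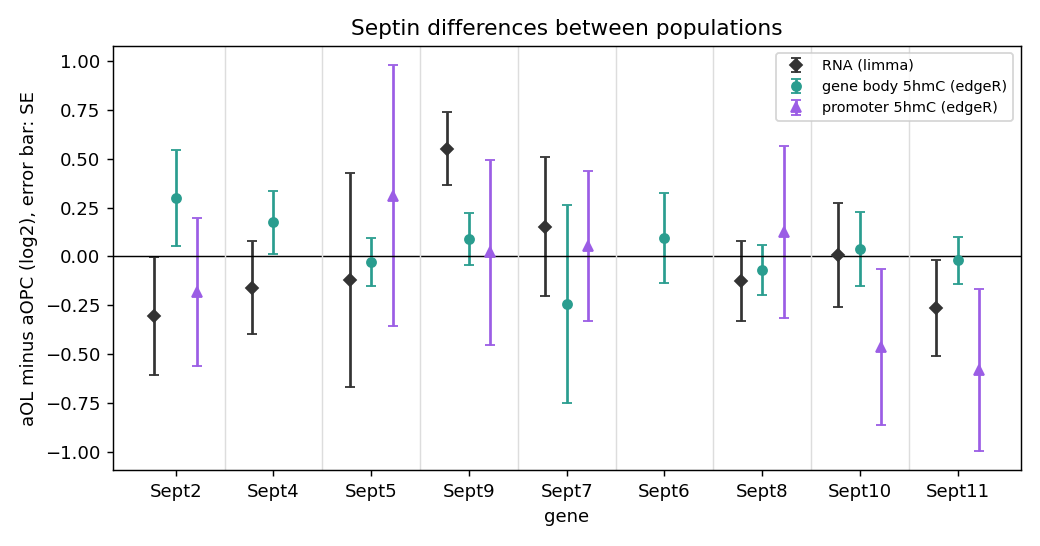
Difference aOL minus aOPC on the log2 scale (vertical axis) with its standard error for RNA (diamonds), gene body 5hmC (circles) and promoter 5hmC (triangles) of the 9 septins (horizontal axis); Sept6 has no RNA value here, and Sept4 and Sept6 had too few promoter reads for a test. Gene body differences run from -0.25 to 0.30 and the largest RNA difference is 0.55 for Sept9.

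Promoters, which the authors' columns mark around each start, varied in 5hmC reads. A site can count for both the promoter and the gene body, so these sums are not separate. Sept7, for one, had 33 gene body sites and 31 promoter sites among 40 sites in all. The Sept5 promoter had the most, with 213 and 329 reads in aOPC and 336 and 582 reads in aOL over 21 sites, which is 29.9 and 19.2 CPM against 21.1 and 21.5 CPM. Its groups overlapped (difference 0.31, edgeR SE 0.67, adjusted p = 0.998). A test was possible for 7 of the 9 septin promoters, and edgeR called none, where it called 0.768% of 14579 promoters and 5.97% had an unadjusted p under 0.05, against 0 of 7 septins. The lowest difference was that of Sept11, with 13.5 and 4.32 CPM in aOPC and 3.52 and 3.84 CPM in aOL (-0.58, SE 0.42, adjusted p = 0.998). These groups did not overlap, as was the case with aOL lower for 20.7% of all promoters tested. Sept10 had 6.33 and 1.93 CPM in aOPC and 1.26 and 2.40 CPM in aOL (-0.46, SE 0.40, adjusted p = 0.998). In both promoters aOPC library 2 stood far above the other 3 libraries, and without it the difference was -0.30 for Sept11 and -0.12 for Sept10. Without that library the Sept5 difference was 0.09, and that of the Sept2 promoter went from -0.18 to 0.12. Without aOPC library 3 the differences were larger, at -0.81 for Sept11, -0.70 for Sept10, 0.59 for Sept5 and -0.40 for Sept2. Without aOL library 2 and without aOL library 3, Sept10 was at -0.21 and -0.82 and Sept7 at 0.39 and -0.43. The promoter differences also moved with the scaling. With library totals in place of TMM the median over all promoters went from -0.01 to -0.60, and the difference was -1.24 for Sept11, -1.13 for Sept10 and -0.19 for Sept5. The sign thus turned for Sept5, and also for Sept7 (0.05 to -0.49), Sept8 (0.13 to -0.42) and Sept9 (0.02 to -0.56). Relative to that median, Sept5 stood above and Sept10 and Sept11 below it under both scalings. Sept4 promoter sites had 7 and 9 reads in aOPC and 6 and 12 in aOL, and those of Sept6 had 3 and 3 in aOPC and 4 and 11 in aOL. In RefSeq promoter windows of 250 bases before a start, found for 7 of the 9 genes, the starts differed in CCGG and CpG content. A window of Sept7 held 9 CCGG and 36 CpG and one of Sept8 held 6 CCGG and 36 CpG, but each received at most 12 reads in any library. One Sept4 window held 0 CCGG and 1 CpG. Over all 32851 windows, 47.1% held a CCGG on either strand.

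CpG islands are stretches rich in CpG that often cover gene starts, and 5hmC at the septins lay mostly outside them. The 155 septin sites in islands had a mean of 0.301 and 0.102 CPM per site in aOPC and of 0.0875 and 0.135 CPM in aOL. The 546 sites outside islands had 0.988 and 1.10 CPM in aOPC and 1.13 and 1.08 CPM in aOL. Sites outside islands thus carried 3.28, 10.7, 12.9 and 7.97 times the signal in aOPC libraries 2 and 3 and aOL libraries 2 and 3. Over all sites of the genome the ratios were 2.19, 5.26, 5.47 and 3.87. The aOPC library 2 had the smallest ratio in both sets and was also the least deeply sequenced. The most deeply sequenced, aOL library 3, had the next smallest ratio in both sets. The cause was not tested. Of the 40 Sept7 sites, 28 lay in an island, as did 20 of 39 for Sept10 and 14 of 25 for Sept2, and 35 of 359 for Sept9. None of the 13 sites of Sept4 and the 16 of Sept6 lay in one.

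**Figure D4:**
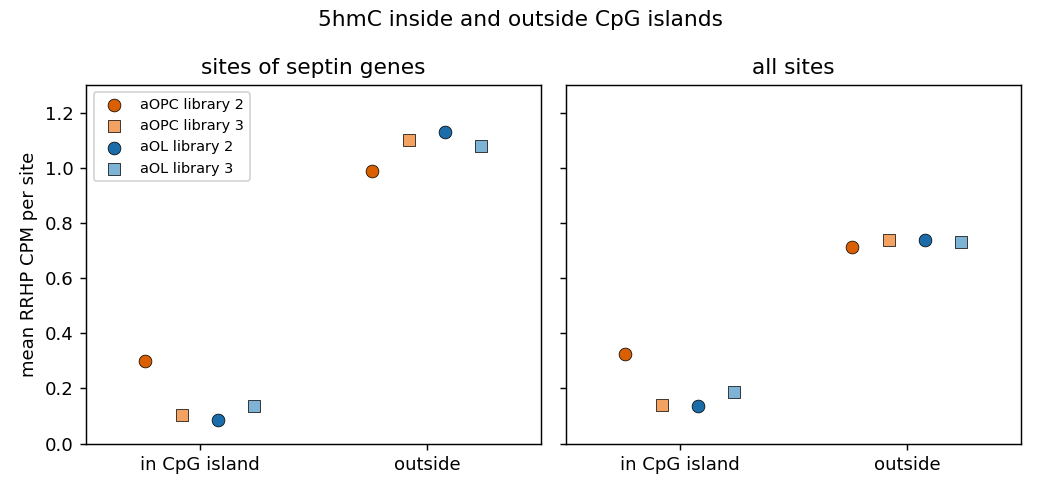
Mean RRHP CPM per site (vertical axis) inside and outside CpG islands for the 701 septin sites (left) and all 1497075 sites (right) in the 4 libraries. Island sites lie below 0.35 in each library and are highest in aOPC library 2, while septin sites outside islands lie near 1.

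Single sites were tested where at least 10 reads were present in at least 2 libraries, which left 274 of the 701 septin sites and 443062 of all sites. These were 168 sites of Sept9, 33 of Sept11, 29 of Sept5, 23 of Sept8, 7 of Sept10, 6 of Sept4 and 4 each of Sept2 and Sept6. No site of Sept7 was deep enough. In edgeR, 1 of the 274 sites was called, higher in aOL, and it met the read minimum through the aOL libraries alone. The background was 2.29% of sites called in either direction and 1.21% called higher in aOL. At an unadjusted p under 0.05, 11 septin sites were higher and 14 lower in aOL, that is 25 of 274, where 5.45% of all sites were higher and 4.31% lower. The median site difference was 0.09 on the log2 scale over septin sites and -0.01 over all sites, and 159 of 274 septin sites lay above 0, against 217941 of 443062 sites.

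The called site lies in an intron of Sept9, 128222 bases from the gene start, at cytosine 117327883 on the minus strand of chromosome 11 (the first of the sequences shown). It had 0 and 2 reads in aOPC and 25 and 36 reads in aOL. Both aOPC counts were at or under the limit that a count of 0 allows, and both aOL counts were well above it. Scaled to the library totals, the ratio of aOL to aOPC was 17.2, with an exact 95% counting interval from 4.56 to 145. The fitted log2 difference, which at such counts depends on the prior of the fit, was 3.97 (edgeR SE 0.76, adjusted p = 0.0075). Within 2000 bases on either side no other site was tested, and the 1 other listed site there, at 117327506 on the plus strand, had 0 and 0 reads in aOPC and 4 and 2 reads in aOL. With 1 called site, no 2 kb window at a septin held the 2 concordant called sites that define a differentially hydroxymethylated region.

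The site was tested because both aOL libraries had at least 10 reads there, so with these aOPC counts it could enter the test only by being higher in aOL. With 10 reads required in every library it was not tested, and 0 of 106 septin sites were called, where 0.134% of all sites were called higher and 0.153% lower. DESeq2 gave it an adjusted p of 0.106, above the threshold. Without either aOL library it no longer met the read minimum. The fits without an aOPC library set it against a lone library of 2 or 0 reads, with the spread taken from the aOL pair.

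The number of called sites moved with the aOPC libraries, at the septins as over all sites. Without aOPC library 3, edgeR called 7 septin sites higher and 16 lower of 260, which is 2.69% and 6.15%, where 2.73% of all sites were called higher and 4.02% lower. Without aOPC library 2 it called 3 of 272 septin sites higher and 0 lower, where 1.45% of all sites were called higher and 0.211% lower. Without aOL library 2 or 3 it called 0 septin sites, where 0.0779% and 0.0729% of all sites were called higher and 1.08% and 1.23% lower.

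A pair of further sites had an adjusted p under 0.1 and were chosen after their values were seen. A Sept5 intron site 1165 bases from the gene start had 53 and 114 reads in aOPC and 34 and 101 reads in aOL, which is 7.45 and 6.66 CPM against 2.14 and 3.73 CPM. Both aOL values were lower (difference -1.32, edgeR SE 0.33, adjusted p = 0.0550). A Sept8 intron site 17013 bases from the gene start had 1 and 5 reads in aOPC and 27 and 26 in aOL, both aOL libraries being higher (difference 2.31, edgeR SE 0.63, adjusted p = 0.0858). Like the called Sept9 site, it met the read minimum through the aOL libraries alone. Neither passed the threshold.

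None of the most-read sites of the 8 genes with a tested one was called. The groups did not overlap at 3 of them, with aOL higher for Sept4 and Sept8 and lower for Sept5, where 23.3% of all tested sites had such groups with aOL higher and 17.2% with aOL lower. The one in Sept9 had 106 and 213 reads in aOPC and 212 and 272 reads in aOL (14.9 and 12.4 CPM against 13.3 and 10.1 CPM). The one in Sept11, which GENCODE marks as UTR, had 97 and 187 reads in aOPC and 178 and 265 in aOL (13.6 and 10.9 CPM against 11.2 and 9.79 CPM). The most-read Sept5 site had 9.98 and 8.06 CPM in aOPC and 7.85 and 7.61 CPM in aOL, both aOL values being lower. For these 3 genes edgeR gave adjusted p values from 0.767 to 0.795. In Sept4 the most-read site had 34 and 99 reads in aOPC and 136 and 168 reads in aOL (4.78 and 5.78 CPM against 8.54 and 6.21 CPM), both aOL values being higher by less than the test required (difference 0.36, edgeR SE 0.28, adjusted p = 0.769). In Sept8 the most-read site, in an intron, had 2.25 and 5.37 CPM in aOPC and 5.71 and 6.14 CPM in aOL, again with both aOL values higher (difference 0.47, edgeR SE 0.32, adjusted p = 0.723). The groups overlapped for the most-read sites of Sept2 (1.12 and 1.99 CPM in aOPC, 2.57 and 1.96 CPM in aOL), Sept6 (2.39 and 1.93 CPM, 2.14 and 2.59 CPM) and Sept10 (1.12 and 2.63 CPM, 3.14 and 2.11 CPM). The most-read Sept7 site had 4 and 3 reads in aOPC and 2 and 10 reads in aOL.

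Sept9, the gene with the most sites, was followed along its length in bins of 20 kb. The signal was lowest from 60 to 80 kb past the start, with 0.270 and 0.249 CPM per CCGG strand in aOPC and 0.270 and 0.269 in aOL. It was highest from 140 to 160 kb in 3 libraries, with 0.874 and 1.07 in aOPC and 1.08 and 1.02 in aOL, and in aOPC library 2 the last stretch from 160 kb to the gene end was higher still, at 0.945. The profiles of the 4 libraries ran close together over most of the gene. The bin from 80 to 100 kb was at 0.337 and 0.436 in aOPC and at 0.540 and 0.563 in aOL, and in the bins from 120 to 140 kb and from 80 to 100 kb both aOL libraries were higher. Both aOL libraries were lower in the bins from 0 to 20 kb (0.505 and 0.546 in aOPC, 0.490 and 0.487 in aOL), from 100 to 120 kb (0.505 and 0.482, 0.463 and 0.438) and from 160 kb (0.945 and 0.850, 0.764 and 0.799). These bins were singled out after their values were seen and were not tested. From 120 to 140 kb, where the called site lies, aOPC library 2 was at 0.353 and the other libraries lay between 0.552 and 0.565.

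**Figure D5:**
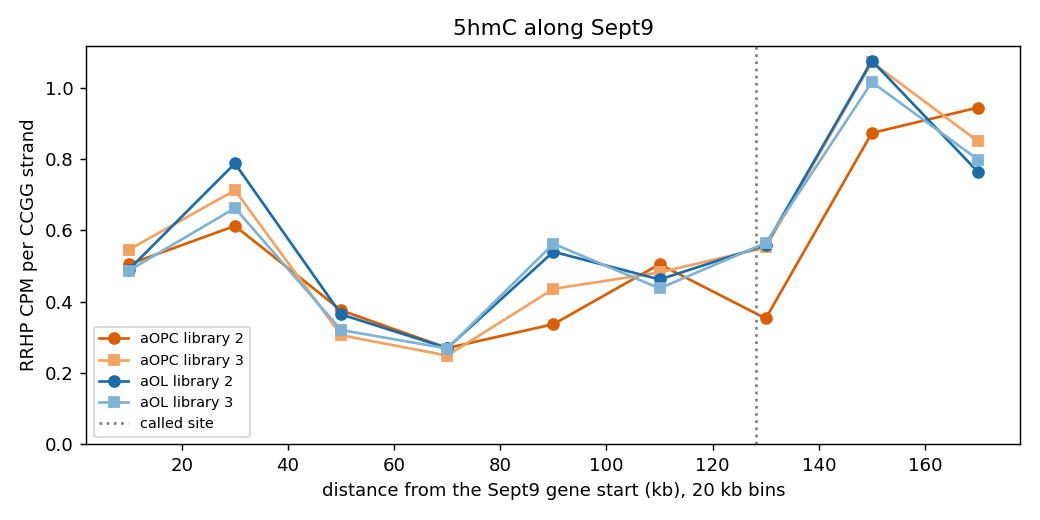
RRHP CPM per CCGG strand (vertical axis) in 20 kb bins along Sept9 (horizontal axis, distance from the gene start in kb; the last bin stops at the gene end) in the 4 libraries, with a dotted line at the called site. The 4 profiles share a low near 70 kb, and 3 of them are highest near 150 kb, while aOPC library 2 is highest in the last bin.

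At a CCGG, 5hmC can sit on either strand and is read strand by strand. The septin sites came from 489 CCGG, of which 212 were listed on both strands and 94 had at least 10 reads on each strand over the 4 libraries. Across these 94 the Spearman correlation of plus and minus counts was 0.22 and 0.37 in aOPC libraries 2 and 3 and 0.60 and 0.52 in aOL libraries 2 and 3, as a description over sites that share a library and its depth.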

How the data were processed

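RNA-seq and RRHP libraries of FAC-sorted aOPC and aOL were analysed, 2 per population and assay, grouped by GEO titles. The septins and all gene lists were chosen with earlier results of these data known. For RNA, the authors deposited log2 values, 1 per symbol and library. Reads had been aligned to mm10 with BWA, exon reads counted with featureCounts, and DESeq2 used downstream (version 1.2.5 per the labels). Quantiles of the deposited log2 values nearly coincide between libraries, which would hide any shift common to most genes, and no depth can be read from them. limma 3.58.1 was run on genes that reached a log2 value of 5 in 2 or more libraries, and calls needed p under 0.01 and an adjusted p (Benjamini-Hochberg) under 0.05.

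For RRHP, the authors deposited read counts per CpG site and strand with promoter, exon, intron and CpG island columns. The aligner, the treatment of duplicates and any site filter are not given in the sources used here. Sites listed for 1 pair of libraries were given 0 in the other pair. The test was that of edgeR 4.0.16 (quasi-likelihood, TMM) at an adjusted p under 0.05: single sites that reached 10 reads in 2 or more libraries, and sums over gene bodies and promoters after filterByExpr. A differentially hydroxymethylated region was a window of 2000 bases with at least 2 called sites in one direction. Reads carry no molecular identifiers, so intervals cover counting error only.

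Single sites named are each called site, the most-read site of each gene, and a Sept5 and a Sept8 site chosen after their values were seen. Partners were named where groups did not overlap, besides Anln and Cdc42. Gene starts and ends came from RefSeq, exon lengths from GENCODE vM21, and sequences from the GRCm38 reference and RefSeq promoters. DESeq2 1.42.0, other filters and scalings, a replicate block and leaving out each library were tried as alternatives. Software was Python 3.11.15 with scipy 1.17.1, pandas 2.3.3, numpy 2.4.6 and matplotlib 3.10.9, and R 4.3.3. Scripts were tested on simulated data.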

Additional observations from a re-analysis of the deposited data

How the results depend on the processing

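Septin RNA gave 0 calls in limma under each other filter, weighting or scaling, with 1 gene or none at an unadjusted p under 0.05. Leaving out 1 library gave 0 to 1 genes called higher and 0 to 1 lower, the calls arising without aOPC library 2 or 3. Gene bodies and promoters of septins gave 0 calls under each alternative that was run, where the share called over all gene bodies or promoters reached 10.3% higher and 12.3% lower for bodies and 9.68% higher for promoters, without aOPC library 3. The alternatives run for 2 kb windows had at most 1 called septin site and so could give no region, and windows were not computed for the fits with more called sites. Among single sites, the call of 1 site higher in aOL and 0 lower is set here beside the shares of all sites called higher and lower. Library totals in place of TMM gave 2 higher (all sites 1.45% and 1.06%), DESeq2 size factors 1 higher and 1 lower (1.29% and 1.09%), no filter on counts 4 higher (0.687% and 0.861%), DESeq2 0 higher (0.537% and 0.964%), and 10 reads in every library 0 higher (0.134% and 0.153%). Leaving out 1 library gave 0 to 7 sites higher and 0 to 16 lower, the most without aOPC library 3, where calls over all sites rose from 5382 to 10623 higher and from 4772 to 15643 lower. The causes were not tested.

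Same-numbered aOPC and aOL libraries come from different reporter lines, so the number was not treated as a pairing. The deviations from the group means of same-numbered libraries correlated at -0.07 for RNA and -0.41 for gene body counts. With the replicate number as a block, 0 septins were called in RNA (all genes: 30 higher and 97 lower, against 1 and 8 without it), 2 septin sites were called higher and 1 lower (all sites 1.69% and 1.25%), and 0 gene bodies and promoters. A crossed pairing, added after the data were seen, called 3 septin sites higher and 2 lower (all sites 1.74% and 1.51%).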
